A study of Rattus norvegicus with 6 samples.

Results

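The 4 inhibitor of DNA binding genes Id1, Id2, Id3 and Id4 were followed in primary nucleus pulposus cells of SD (Sprague Dawley) rats, the cells of the gel-like core of the intervertebral disc. The members were the rows of the deposited gene table that carry these gene symbols, and each symbol stood on a single row, giving 4 of 19088 gene rows. In the rShh group 3 samples had been given recombinant Sonic hedgehog (rShh), the secreted ligand of the Hedgehog pathway, at 200 ng/ml in DMSO for 48 h. In the Control group 3 samples had been given DMSO alone for 48 h. All 6 were grown in the same medium with fetal bovine serum, which itself can contain growth factors. The labels do not say whether the samples of a group were separate cultures or animals, so p-values here rest only on sample-to-sample spread, part or all of which could be technical.

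ID proteins are small nuclear proteins with a helix-loop-helix and no basic DNA-binding region. They pair with the E proteins Tcf3, Tcf4 and Tcf12, which otherwise bind E-box DNA together with tissue-specific basic helix-loop-helix (bHLH) factors, and so hold these factors off DNA. In many cell types BMP ligands switch on Id1, Id2 and Id3 directly through SMAD proteins, and ID proteins are generally linked to proliferation and to delayed differentiation.

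Gene counts summed to 65116846 to 70031072 per library in the rShh group and to 50758195 to 55501124 in the Control group. The mitochondrial share of the counts was 3.25% to 3.36% in the rShh libraries and 1.97% to 2.28% in the Control libraries. The rShh libraries held 2235 to 7120 counts for each of the Y-linked genes Ddx3, Eif2s3y and Kdm5d, while each Control library had 0. The groups thus differed in Y transcripts as well as in the ligand. Sex, donor animal and cell isolation, which may go with the Y transcripts, cannot be told apart from the ligand as sources of any difference. Words such as rose and fell below only place the rShh group relative to the Control group. Of 16 nucleus pulposus and notochord markers, 11 had rows under the symbols searched and 10 of these reached 1 CPM (each gene's share of the TMM-scaled library total, in parts per 1e6) in at least 1 library, with a summed level of 1114 to 1129 CPM in the rShh group and 379 to 390 CPM in the Control group. Acan, the core protein of aggrecan, was at 569 to 596 CPM in the rShh group and at 48.0 to 63.8 CPM in the Control group. The markers did not move as one, since in all rShh libraries 4 of the 11 lay above every Control library and 6 lay below. Those above were Acan, Sox9, Hif1a and Slc2a1, and those below were Krt8, Cd24, Foxa1, Foxa2, Pax1 and Col2a1. Krt8, a keratin of notochordal cells, was at 1.83 to 2.26 CPM in the rShh group and 11.9 to 13.5 CPM in the Control group, and the surface marker Cd24 at 14.2 to 16.2 CPM in the rShh group and 47.4 to 55.0 CPM in the Control group. Krt18, the keratin that pairs with Krt8, stayed at or below 0.159 CPM in every library. Krt19, Tbxt and Noto had no row under the symbols searched. Among markers of other cells, the 4 leukocyte genes with rows summed to 13.0 to 15.5 CPM in the rShh group and 10.9 to 14.1 CPM in the Control group, nearly all of it Cd14, with Csf1r and Itgam below 0.3 CPM in every library. The 3 muscle genes with rows summed to 5379 to 5783 CPM in the rShh group and 3270 to 4990 CPM in the Control group, most of it Acta2. The 3 glial genes with rows summed to 62.6 to 68.0 CPM in the rShh group and 192 to 216 CPM in the Control group, nearly all S100b. The 3 annulus and tendon genes with rows summed to 108 to 112 CPM in the rShh group and 135 to 197 CPM in the Control group. Only Scx among them was lower in the rShh group, while Mkx was at 20.7 to 22.9 CPM in the rShh group and 16.0 to 17.8 CPM in the Control group, and Thbs4 at 36.7 to 37.1 CPM in the rShh group and 0.212 to 0.789 CPM in the Control group. The part of other cell types in the ID differences was not tested.

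The 4 genes lie on 4 chromosomes and are short. In the coordinates of the deposited tables, whose genome build is not given in the sources used here, Id1 (ENSRNOG00000021750) spans 148215540 to 148216718 on the plus strand of chromosome 3 and has a single transcript of 2 exons and 958 nt. Id3 (ENSRNOG00000026124) spans 154489590 to 154491223 on the plus strand of chromosome 5, with a single transcript of 3 exons and 1006 nt. Id4 (ENSRNOG00000016099) spans 16692557 to 16695126 on the minus strand of chromosome 17, with a single transcript of 3 exons and 1626 nt. Id2 (ENSRNOG00000007237), on the minus strand of chromosome 6 from 44348501 to 44363915, has 2 transcripts.

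The start regions of Id1 and Id3 are shown because these were the most abundant members and changed in opposite directions. They come from RefSeq on the GRCr8 assembly, another coordinate system than that of the tables, and all 4 symbols matched. Each runs 5′ to 3′ on the gene's own strand from 250 bases before the annotated start to 50 after it, Id1 at chr3:161671314-161671613 and Id3 at chr5:153656041-153656340, both on the plus strand. Capitals mark matches to any of 8 motifs searched on both strands.
Id1: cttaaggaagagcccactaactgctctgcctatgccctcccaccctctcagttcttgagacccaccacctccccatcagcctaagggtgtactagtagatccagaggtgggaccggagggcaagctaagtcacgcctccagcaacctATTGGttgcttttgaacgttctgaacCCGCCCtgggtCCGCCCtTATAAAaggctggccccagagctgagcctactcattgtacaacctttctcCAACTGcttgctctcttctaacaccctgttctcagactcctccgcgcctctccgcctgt
Id3: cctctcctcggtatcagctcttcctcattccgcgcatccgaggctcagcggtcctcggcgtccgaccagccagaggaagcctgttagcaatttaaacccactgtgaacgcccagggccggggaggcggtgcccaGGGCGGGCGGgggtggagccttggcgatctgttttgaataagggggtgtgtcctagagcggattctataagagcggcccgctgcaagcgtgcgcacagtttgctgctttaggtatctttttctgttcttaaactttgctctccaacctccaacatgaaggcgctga

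The GC box GGGCGG occurred in all 4 start regions, with 2 matches in Id1, 1 in Id2, 2 overlapping ones in Id3 and 1 in Id4, and it stood in 33.1% of the 33469 rat start regions of this length. The TATA box TATAAA was matched only in Id1 among the members (14.2% of all start regions). The CCAAT box, spelled CCAAT, was matched once in Id1 and 3 times in Id2 (37.5%). The E-box CANNTG, the kind of site that E proteins bind, was matched once in Id1, 9 bases before its start, and once in Id2 (72.1%). The GC-rich SMAD site GGCGCC was matched once, in Id4 (11.0%), at base 39 counted from the annotated start and so not upstream of it. The annotated start of Id4 falls on an ATG. Its window may therefore be set on the start of the coding sequence, and matches present or absent there may not describe its promoter. No member held the palindromic SMAD element GTCTAGAC (0.197%), the GLI site GACCACCCA (0.385%) or the EGR1 site GCGGGGGCG (2.73%) in this window.

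The first comparison asked how the level of each ID gene under rShh compared with that under DMSO alone. Id1 fell, while Id2, Id3 and Id4 rose, and for each of the 4 the values of the rShh libraries lay wholly on one side of those of the Control libraries. In edgeR's quasi-likelihood test, with a threshold of 0.05 on the adjusted p, 3 members were called higher and 1 lower under rShh. That count has to be read against a background in which 60.3% of the 14775 genes tested passed, made up of 31.5% higher and 28.8% lower. Separate groups were likewise common, at 68.1% of the genes tested.

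Id1, which restrains differentiation of many mesenchymal cells and is a standard readout of BMP signalling, fell. Its level was 35.2, 40.8 and 40.8 FPKM (a level scaled by transcript length and library depth) in the rShh libraries, against 58.0, 78.5 and 76.8 FPKM in the Control libraries. These values rested on 2629, 3193 and 3029 counts in the rShh libraries and on 3713, 4847 and 4489 in the Control libraries. The groups did not overlap even though the rShh libraries were the deeper ones, and Control replicate 1 was the lowest of its group. As CPM, Id1 averaged 44.3 ± 3.06 in the rShh group and 81.5 ± 13.7 in the Control group (SD, n = 3 each), a log2 change of -0.88 (SE 0.12, edgeR adjusted p = 9.40e-05). Because Id1 is also abundant in endothelial cells, their markers were read beside it. Of 7 endothelial markers 3 had rows, and they summed to 1.96 to 2.22 CPM in the rShh group and 4.86 to 7.07 CPM in the Control group. Tek, a receptor of angiopoietins, made up most of this sum, while Tie1 stayed at or below 0.0707 CPM and Vwf at or below 0.513 CPM in every library. Cdh5, Emcn, Kdr and Pecam1 had no row under the symbols searched. The sum thus rests on Tek and cannot tell how many endothelial cells there were. In RNA from whole cultures, fewer cells of a type and less RNA per cell cannot be told apart.

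Id3, which is closely related to Id1 and is often expressed with it, went the other way. It was the most abundant member by far, at 328, 327 and 339 FPKM in the rShh libraries and 182, 238 and 258 FPKM in the Control libraries. Its counts were 25762, 26829 and 26392 in the rShh libraries and 12273, 15445 and 15862 in the Control libraries. The rShh libraries differed little among themselves, whereas the Control libraries were spread more widely, again with replicate 1 lowest. Id3 averaged 396 ± 9.34 CPM in the rShh group and 272 ± 49.6 CPM in the Control group (SD, n = 3 each), a log2 change of 0.54 (SE 0.11, edgeR adjusted p = 0.00165). The change was 1.45-fold, and 53.9% of the genes tested changed by less in either direction.

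Id2, which besides E proteins can bind the retinoblastoma protein and its relatives, rose. It reached 14.7, 12.3 and 13.9 FPKM in the rShh libraries, against 7.90, 8.61 and 7.12 FPKM in the Control libraries. The counts behind these were 1711, 1503 and 1603 in the rShh libraries and 788, 828 and 648 in the Control libraries. The lowest rShh library stood well above the highest Control library. The mean was 24.2 ± 2.48 CPM in the rShh group and 14.0 ± 1.33 CPM in the Control group (SD, n = 3 each), a log2 change of 0.78 (SE 0.11, edgeR adjusted p = 0.000161) or 1.72-fold.

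Nearly all Id2 counts were assigned to its shorter transcript. This transcript, ENSRNOT00000009491, with 3 exons and 733 nt, carried 91.2% to 92.9% of the gene's counts in the rShh libraries and 90.0% to 90.7% in the Control libraries. It averaged 25.5 ± 2.02 FPKM in the rShh group and 14.5 ± 1.38 FPKM in the Control group (SD, n = 3 each). On the log2(FPKM + 1) scale, which understates changes of low transcripts, the difference was 0.78 (SE 0.09, limma adjusted p = 0.000617), where 56.5% of the 13699 transcripts tested passed. The longer transcript ENSRNOT00000085925, with 4 exons and 1169 nt, starts farther upstream. It had 150, 106 and 129 counts in the rShh libraries and 73, 82 and 65 in the Control libraries, and its difference of 0.27 (SE 0.13) did not pass (limma adjusted p = 0.117). Reads from sequence common to both have to be split between them, so the counts of the longer one are uncertain, and whether the changes of the transcripts differ was not tested. The gene-level FPKM of Id2 is below the sum over its transcripts, which was 24.4 to 29.0 FPKM in the rShh group and 13.9 to 16.9 FPKM in the Control group.

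Id4, which in several settings opposes the other ID proteins by pairing with them, had the lowest level and the largest fold change of the 4. It was at 4.55, 3.91 and 3.69 FPKM in the rShh libraries and 1.01, 1.25 and 1.25 FPKM in the Control libraries, from 577, 519 and 464 counts in the rShh libraries and 110, 131 and 125 in the Control libraries. Every rShh library held more than 3 times the count of any Control library, before scaling for the greater depth of the rShh libraries. Scaled to CPM, Id4 was at 7.09 in the lowest rShh library and at 2.46 in the highest Control library. As CPM it averaged 7.83 ± 0.986 in the rShh group and 2.28 ± 0.293 in the Control group (SD, n = 3 each), a log2 change of 1.78 (SE 0.18, edgeR adjusted p = 1.27e-05) or 3.43-fold. Of the genes tested, 90.5% changed by less than Id4 in either direction. Id4 was also the only member to pass a test against a change of 2-fold (edgeR adjusted p = 0.00181), which 10.6% of all genes passed.

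**Figure D1:**
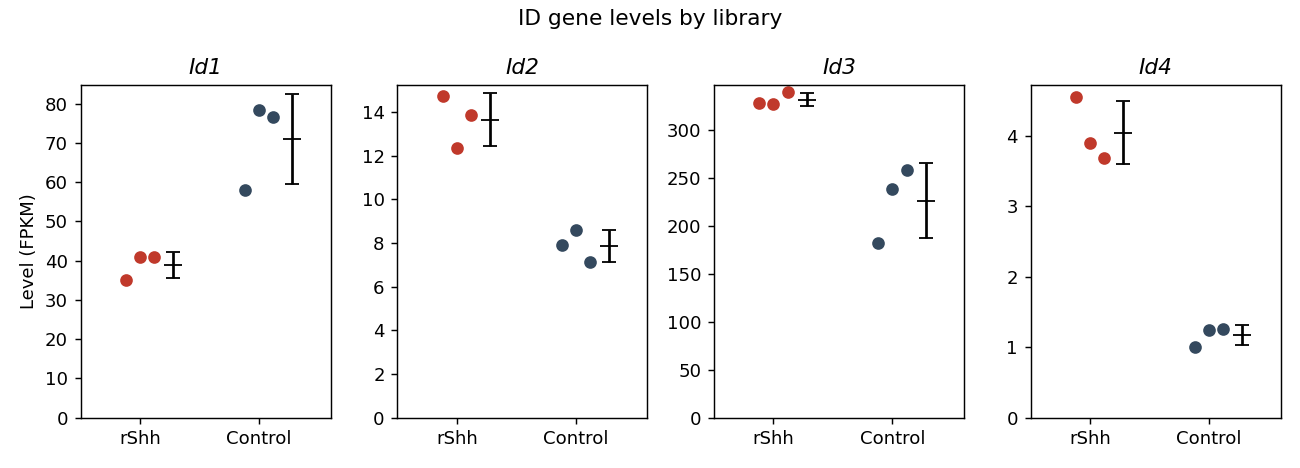
Level of each ID gene in FPKM (vertical axes from 0, each panel with its own scale) in the 3 rShh and the 3 Control libraries, with points for libraries and a bar for mean ± SD. Id1 averaged 38.9 FPKM in the rShh group and 71.1 FPKM in the Control group, while the rShh points lie above the Control points for Id2, Id3 and Id4.

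**Figure D2:**
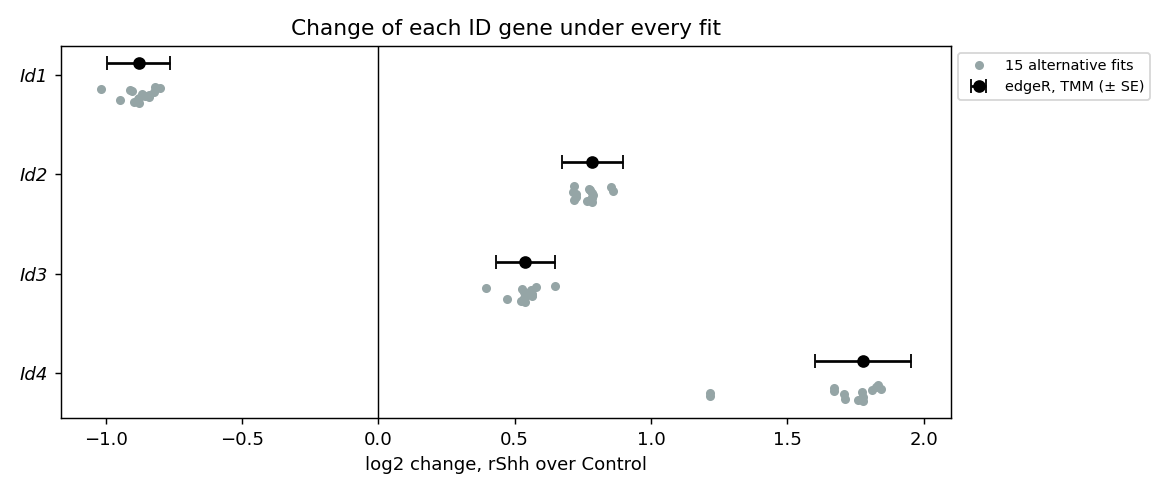
Log2 change (horizontal axis) of each ID gene between rShh and Control, with the edgeR estimate ± SE in black and 15 other fits in grey. Id1 lies below 0 in all of them, between -1.02 and -0.80, and Id4 lies farthest to the right at 1.22 to 1.85. The 1.22 is from limma on log2(FPKM + 1), a scale that understates changes at low levels.

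The order of the levels, compared per length in FPKM, was the same in both groups, with Id3 highest, then Id1, Id2 and Id4. Neighbours in this order did not overlap in either group. By ratio of means, the closest were Id1 and Id2 in the rShh group, at 38.9 ± 3.26 FPKM for Id1 and 13.7 ± 1.20 FPKM for Id2 (SD, n = 3 each). Summing the transcripts of Id2 narrowed that gap, with Id2 then at up to 29.0 FPKM and the lowest Id1 library at 35.2 FPKM. Against all 19088 rows, the mean FPKM of Id3 over the 6 libraries was higher than that of 98.8% of them, that of Id1 than 93.5%, that of Id2 than 73.6% and that of Id4 than 48.8%.

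The make-up of the ID transcript pool shifted between the groups. Id3 made up 85.8%, 85.1% and 85.3% of the summed FPKM of the 4 genes in the rShh libraries, against 73.2%, 72.9% and 75.2% in the Control libraries. Id1 made up 9.19%, 10.6% and 10.3% in the rShh libraries and 23.2%, 24.0% and 22.3% in the Control libraries. Id3 thus took up most of the share that Id1 gave up, and libraries of a group were close to one another. Id2 contributed 3.22% to 3.85% in the rShh group and 2.07% to 3.17% in the Control group. These shares use gene-level FPKM, and that of Id2 would be larger with the sum over its transcripts. Id4 contributed 0.928% to 1.19% in the rShh group and 0.365% to 0.404% in the Control group. The summed level itself was 388 ± 8.09 FPKM in the rShh group and 306 ± 50.2 FPKM in the Control group (SD, n = 3 each), and is given without a test.

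**Figure D3:**
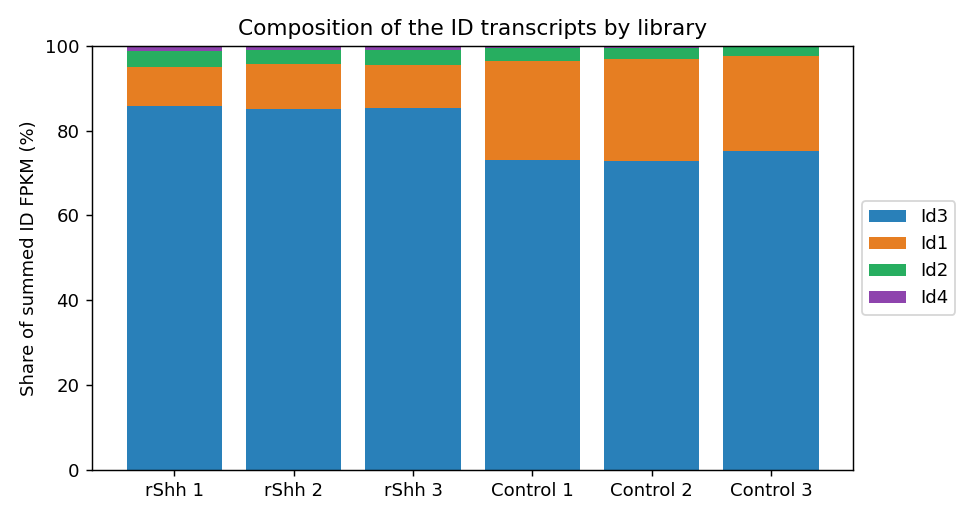
Share of each ID gene in the summed FPKM of the 4 (vertical axis, percent) in each library, rShh libraries on the left and Control libraries on the right. Id1 takes 9.19% to 10.6% of the bar in the rShh libraries and 22.3% to 24.0% in the Control libraries.

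A ratio of 2 members within a library does not depend on how libraries are scaled, so it was used to ask whether the members changed by different amounts. The Id3 to Id1 ratio of FPKM was 9.33, 8.00 and 8.30 in the rShh libraries and 3.15, 3.03 and 3.37 in the Control libraries. Within a group this ratio was steady, including in Control replicate 1, where both genes were low. On counts, the mean log2 ratio of Id3 to Id1 was 3.16 ± 0.12 in the rShh group and 1.74 ± 0.08 in the Control group (SD, n = 3 each), a difference of 1.42 (two-sided exact permutation p = 0.1, adjusted over 6 pairs 0.12). The smallest p that 3 samples against 3 allow is 0.1. The ratio of Id2 to Id1 differed by 1.65 on the log2 scale, that of Id4 to Id1 by 2.64, that of Id4 to Id2 by 0.99 and that of Id4 to Id3 by 1.22, each with separate groups and the same exact permutation p. The remaining pair, Id3 to Id2, had overlapping groups, with a mean log2 ratio of 4.04 ± 0.12 in the rShh group and 4.26 ± 0.33 in the Control group (difference -0.23, exact permutation p = 0.4, adjusted 0.4).

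The genes whose profile over the 6 libraries was most like that of each member were taken by the smallest root mean square difference of centred log2(FPKM + 1), among 10254 other named genes with a mean of at least 1 FPKM. Since most genes differ between the groups, the measure is set mainly by the size of that difference. The nearest to Id1 were Fdx1, a mitochondrial ferredoxin (root mean square difference 0.037 on the log2 scale), Cars2 (0.065), a mitochondrial tRNA synthetase, and Akt1s1 (0.067), an inhibitor within the mTORC1 complex. Nearest to Id3 were the early response gene Ier3 (0.029), Pgm5 (0.030) and Dusp1 (0.041), a phosphatase of MAP kinases. Ier3 ran at 351, 351 and 354 FPKM in the rShh libraries and 196, 254 and 262 FPKM in the Control libraries, with Control replicate 1 lowest, as for Id3. Nearest to Id2 were Pcbp3 (0.046), an RNA-binding protein, Tdrkh (0.054) and the kinase gene Rps6kb1 (0.054). Nearest to Id4 were Arhgef6 (0.046), a guanine nucleotide exchange factor, Hyls1 (0.066), a centriole protein, and Mybl2 (0.073), a transcription factor of the cell cycle.

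The E proteins, the main partners of ID proteins, did not move together. Tcf3, which encodes E12 and E47, had 3953, 4203 and 3821 counts in the rShh libraries and 6514, 7266 and 7779 in the Control libraries. It fell to 60.0 ± 1.51 CPM in the rShh group, against 134.6 ± 19.1 CPM in the Control group (SD, n = 3 each; log2 change -1.17, SE 0.09, edgeR adjusted p = 2.98e-06). Tcf4 rose, with 29.8 ± 1.63 CPM in the rShh group and 19.8 ± 1.65 CPM in the Control group (log2 change 0.59, SE 0.09, edgeR adjusted p = 0.000280). Tcf12 averaged 48.6 ± 0.927 CPM in the rShh group and 37.5 ± 7.64 CPM in the Control group, and it passed narrowly (log2 change 0.37, SE 0.13, edgeR adjusted p = 0.0274). The call on Tcf12 was lost without rShh replicate 1, 2 or 3 (edgeR adjusted p = 0.0613, 0.0727 and 0.0768) and with upper-quartile scaling (0.0577).

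Summed over the 3 E proteins, the level was 40.5 ± 1.21 FPKM in the rShh group and 54.3 ± 2.45 FPKM in the Control group (SD, n = 3 each). The summed ID level was 9.73, 9.19 and 9.83 times the summed E protein level in the rShh libraries and 4.81, 6.0 and 6.05 times in the Control libraries. The ratio was higher in every rShh library than in any Control library. It rests on gene-level FPKM, describes transcripts, and is given without a test.

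**Figure D4:**
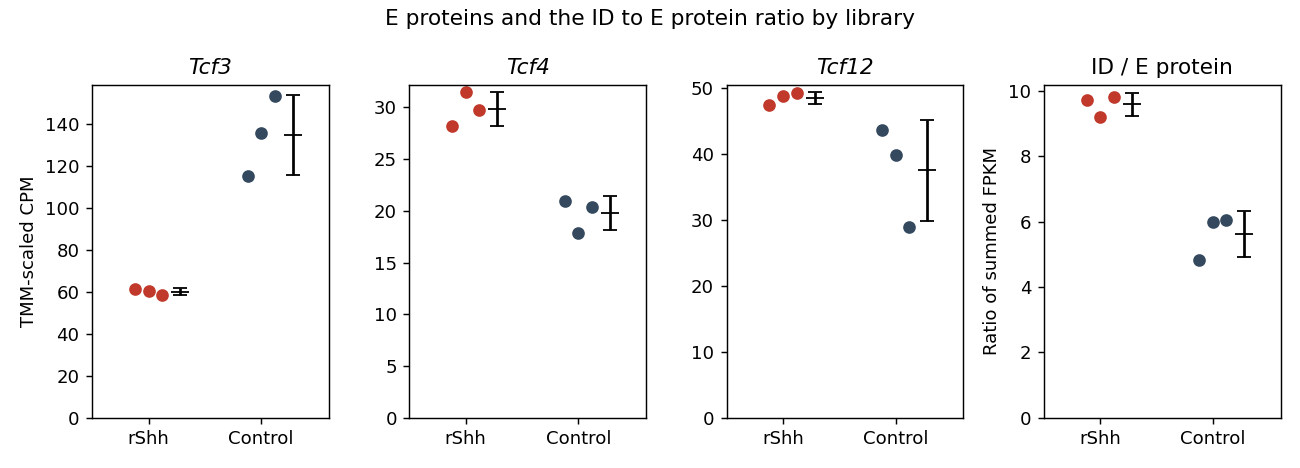
TMM-scaled CPM of the E protein genes Tcf3, Tcf4 and Tcf12 and, at the right, the summed FPKM of the 4 ID genes divided by that of the 3 E proteins, each from 0, in rShh and Control libraries (points) with mean ± SD (bars). Tcf3 lies lower and the ratio higher in the rShh libraries.

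Tissue-specific bHLH factors, which pair with E proteins, went both ways. Of 34 searched, 15 had a row under the symbol used, and 7 of these had enough counts to be tested, with 2 higher, 3 lower and 2 not past the threshold, and a median log2 change of -0.89 beside 0.01 for all genes tested. Of all genes tested, 31.5% were higher and 28.8% lower. Scx, the tendon factor scleraxis, fell to 51.8 ± 0.833 CPM in the rShh group, against 155 ± 32.4 CPM in the Control group (SD, n = 3 each). Twist2 fell to 2.53 ± 0.415 CPM in the rShh group, against 13.3 ± 2.07 CPM in the Control group, whereas its paralogue Twist1, a mesenchymal factor, rose to 29.9 ± 0.779 CPM in the rShh group, against 18.7 ± 2.31 CPM in the Control group. Atoh8 fell to 14.2 ± 0.0378 CPM in the rShh group, against 26.3 ± 5.26 CPM in the Control group. The other rise was in Hand2, a factor of heart and limb, below 1 CPM on average in both groups, which was chosen after its values were seen.

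Partners of ID proteins outside the bHLH family went both ways, with a share called that was near the 60.3% of all genes tested. Of 11 searched, 9 had a row and were tested, with 4 higher, 1 lower and 4 not past the threshold, and a median log2 change of 0.61. Rbl1 (p107), a relative of the retinoblastoma protein, rose to 10.2 ± 0.985 CPM in the rShh group, against 3.29 ± 0.950 CPM in the Control group (SD, n = 3 each). The ETS factors Ets1 and Elk3 rose to 85.6 ± 0.834 and 136 ± 1.13 CPM in the rShh group, against 45.6 ± 3.85 and 89.2 ± 0.783 CPM in the Control group. Elk1, another ETS factor, fell to 31.9 ± 1.71 CPM in the rShh group, against 43.5 ± 2.75 CPM in the Control group. The remaining rise was in Rb1, the retinoblastoma gene, chosen after its values were seen, at 24.8 ± 2.70 CPM in the rShh group and 15.2 ± 3.33 CPM in the Control group. Elk4, Pax8, Rbl2 and Ets2, chosen in the same way, did not pass. Leaving out Control replicate 1 or 2 brought Elk4 past the threshold (edgeR adjusted p = 0.0330 and 0.0461), and leaving out Control replicate 3 did so for Pax8 (edgeR adjusted p = 0.0499).

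Cyclin-dependent kinase inhibitors that E proteins or ETS factors can activate mostly fell. Of 5 tested, 4 were lower and 1 missed the threshold, and the median log2 change was -1.05. Among all genes tested, 28.8% were lower. Cdkn1a (p21), a known E protein target, averaged 331 ± 7.41 CPM in the rShh group and 684 ± 28.8 CPM in the Control group (SD, n = 3 each). Cdkn2b (p15) stood at 12.3, 33.9 and 35.9 CPM in the rShh libraries and 96.2, 106 and 94.9 CPM in the Control libraries, so rShh replicate 1 was far below the other two. Cdkn2a averaged 15.2 ± 0.695 CPM in the rShh group and 25.3 ± 6.88 CPM in the Control group. Cdkn1c was below 1 CPM on average in both groups, and its call was lost without rShh replicate 1 or 2 or Control replicate 1 (edgeR adjusted p = 0.0685, 0.0547 and 0.0706). Cdkn1b (p27), chosen after its values were seen, averaged 54.4 ± 1.39 CPM in the rShh group and 54.2 ± 2.88 CPM in the Control group and did not pass (edgeR adjusted p = 0.947).

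BMP signalling, the best-known inducer of ID genes, was described by its ligands, receptors, inhibitors and other targets. Of 13 ligands searched, 11 had a row and 7 were tested, with 2 higher, 4 lower and 1 not past the threshold, and a median log2 change of -0.90. The shares over all genes tested were 31.5% higher and 28.8% lower. Bmp4, the ligand with the highest mean FPKM, had 411, 405 and 396 CPM in the rShh libraries and 607, 653 and 632 CPM in the Control libraries. It fell by 0.64 on the log2 scale (SE 0.05, edgeR adjusted p = 1.85e-06), and Bmp6 and Bmp3 fell as well, to 16.7 ± 0.722 and 8.06 ± 1.07 CPM in the rShh group, against 31.2 ± 3.21 and 19.6 ± 3.63 CPM in the Control group. Bmp2 rose to 17.8 ± 1.01 CPM in the rShh group, against 6.59 ± 0.150 CPM in the Control group. The remaining fall was in Gdf6, at 1.19 ± 0.379 CPM in the rShh group and 3.58 ± 0.839 CPM in the Control group, chosen after its values were seen. The other rise was in Bmp5, chosen in the same way, below 1 CPM on average in both groups, and it was lost without rShh replicate 2 (edgeR adjusted p = 0.111), leaving 1 ligand higher, and without Control replicate 2 (edgeR adjusted p = 0.0577).

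Receptors and SMADs of the BMP pathway rose or did not pass. Of 12 tested, 7 rose and none fell, with a median log2 change of 0.57, though Smad4 was called lower without Control replicate 3 (edgeR adjusted p = 0.0187) and with upper-quartile scaling (edgeR adjusted p = 0.0306). The share called was near the 60.3% of all genes tested, which was made up of 31.5% higher and 28.8% lower. Eng, endoglin, a coreceptor best known in endothelial cells and also a mesenchymal surface marker, had 3606, 3829 and 3485 counts in the rShh libraries and 113, 80 and 121 in the Control libraries. It rose to 54.7 ± 1.37 CPM in the rShh group, against 1.96 ± 0.449 CPM in the Control group (SD, n = 3 each; log2 change 4.81, edgeR adjusted p = 3.30e-09). The type I receptor Bmpr1b rose to 38.2 ± 1.69 CPM in the rShh group, against 13.3 ± 1.37 CPM in the Control group, and the type II receptor Bmpr2 to 97.8 ± 4.80 CPM in the rShh group, against 56.9 ± 6.98 CPM in the Control group. Smad9, a receptor SMAD, rose to 6.89 ± 1.13 CPM in the rShh group, against 2.18 ± 0.355 CPM in the Control group. Smad1 and Smad5, the main carriers of the signal, chosen after their values were seen, were at 46.9 ± 1.29 and 30.2 ± 1.44 CPM in the rShh group and 47.0 ± 3.54 and 31.0 ± 1.54 CPM in the Control group, and did not pass. The call on Bmpr1a was lost without rShh replicate 1 or 2 or Control replicate 2 or 3 (edgeR adjusted p = 0.0519 to 0.0752).

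Antagonists and inhibitors of BMP signalling split evenly, with 10 higher, 10 lower and 1 not passing of 21 tested (22 searched) and a median log2 change of 0.08. Over all genes tested, 31.5% were higher and 28.8% lower. The secreted antagonist Grem1 rose to 3906 ± 27.6 CPM in the rShh group, against 1074 ± 99.95 CPM in the Control group (SD, n = 3 each). Chrd, chordin, fell to 10.9 ± 0.314 CPM in the rShh group, against 33.5 ± 0.974 CPM in the Control group. Skil (SnoN), a corepressor of SMADs, rose to 79.1 ± 0.733 CPM in the rShh group, against 31.7 ± 1.66 CPM in the Control group. The call on Chrdl2 was lost without rShh replicate 1, 2 or 3 (edgeR adjusted p = 0.0573, 0.0668 and 0.0555) and with DESeq2 (adjusted p = 0.243).

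Other target genes of BMP and SMAD signalling went both ways, like the ID genes. Their list shares Bambi, Nog, Smad6 and Smad7 with that of inhibitors, Smad9 with that of receptors and SMADs, and Atoh8 with the bHLH factors. It is thus not separate from those lists. Of 14 tested (18 searched), 6 were higher, 5 lower and 3 not past the threshold, and the median log2 change was -0.02. All genes tested had 31.5% higher and 28.8% lower. Bambi, a decoy receptor, had 663, 597 and 589 counts in the rShh libraries and 1674, 1960 and 1878 in the Control libraries, and it fell to 9.29 ± 0.889 CPM in the rShh group, against 34.4 ± 4.15 CPM in the Control group (SD, n = 3 each). Gata3 fell to 2.61 ± 0.356 CPM in the rShh group, against 7.32 ± 0.530 CPM in the Control group. Msx2 and Runx2, transcription factors of skeletal cells, rose to 7.83 ± 1.11 and 26.6 ± 0.676 CPM in the rShh group, against 2.45 ± 0.455 and 16.3 ± 0.499 CPM in the Control group. Smad6, an inhibitory SMAD that stands on this list and on that of inhibitors, and was chosen after its values were seen, fell to 11.2 ± 0.742 CPM in the rShh group, against 21.0 ± 3.62 CPM in the Control group. Its fellow inhibitory SMAD, Smad7, chosen in the same way, rose to 78.2 ± 0.754 CPM in the rShh group, against 60.8 ± 4.09 CPM in the Control group.

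Of 10 further genes known to act on ID transcription or on the turnover of ID proteins, 9 were tested, with 5 higher, 2 lower and 2 not past the threshold, and a median log2 change of 0.38. Beside this, 31.5% of all genes tested were higher and 28.8% lower. Egr1, an early response factor that can switch on Id1, had 17163, 20048 and 19955 counts in the rShh libraries and 766, 1118 and 953 in the Control libraries. It rose to 286 ± 19.3 CPM in the rShh group, against 17.7 ± 3.76 CPM in the Control group (SD, n = 3 each), the opposite direction to Id1. Usp1, which removes ubiquitin from ID proteins, rose to 41.3 ± 1.51 CPM in the rShh group, against 18.2 ± 0.808 CPM in the Control group. Cdc20 and Smurf2, which act in or as ubiquitin ligases, rose to 32.7 ± 3.65 and 129 ± 2.14 CPM in the rShh group, against 13.0 ± 2.95 and 75.4 ± 6.51 CPM in the Control group. Smurf2 also stands on the list of inhibitors. The falls were in Atf3, a stress-induced repressor of Id1, and in the kinase gene Dyrk1b, and the remaining rise was in its paralogue Dyrk1a, all chosen after their values were seen. Fzr1, the partner of the ubiquitin ligase that degrades ID proteins, did not pass (edgeR adjusted p = 0.150), but was called lower without Control replicate 1 (edgeR adjusted p = 0.00193).

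**Figure D5:**
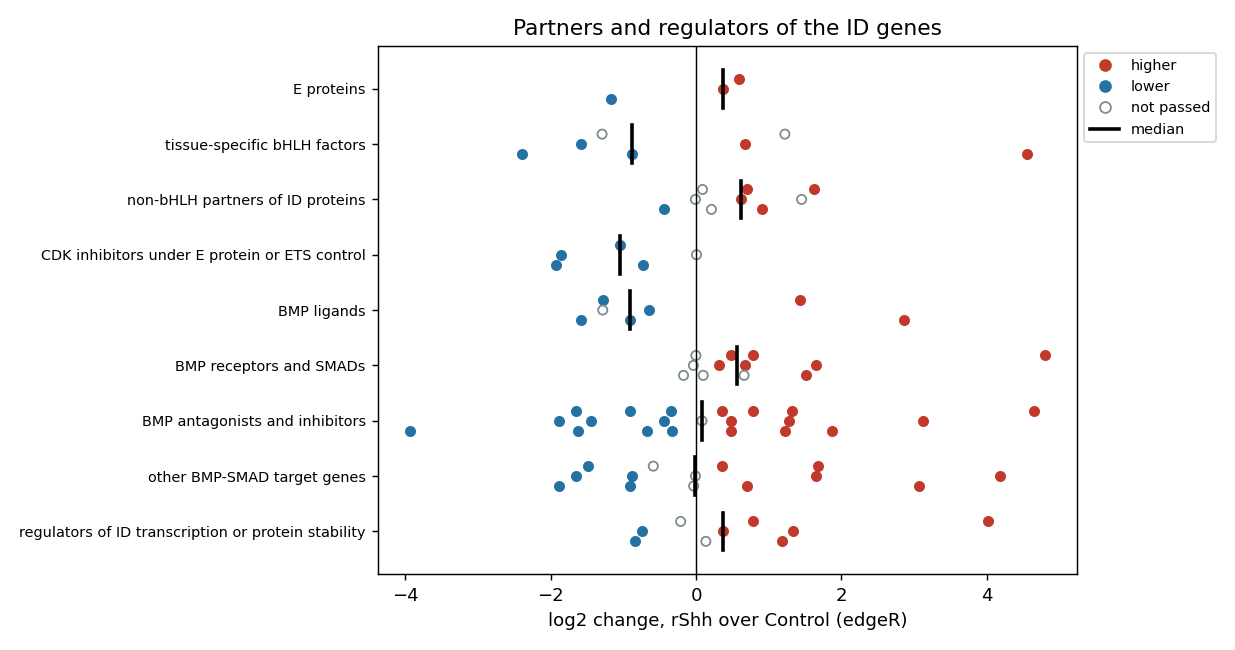
Log2 change between rShh and Control (horizontal axis) of each tested gene on the 9 lists of partners and regulators (rows), with filled points for genes past an edgeR adjusted p of 0.05, red higher and blue lower, open points for the rest and a black bar at each list's median. The medians run from -1.05 for the kinase inhibitors to 0.61 for the partners outside the bHLH family.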

How the data were processed

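RNA sequencing of poly(A) RNA was analysed in 6 samples, 3 per group. The authors deposited whole-number counts, not normalized, and FPKM values for genes and transcripts, per the file headers. The submitters' processing notes list StringTie 1.3.4d, HISAT2 2.0.4, cutadapt 1.9, edgeR and DESeq2 without saying what each was used for. The genome build and strand setting are also not given in the sources used here. The smallest count behind an ID gene was 110.

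Gene counts were filtered with filterByExpr (minimum count 10), scaled by TMM and tested with edgeR 4.0.16 in R 4.3.3 (glmQLFTest, two-sided, group as the only term), with Benjamini-Hochberg adjustment over 14775 genes and a threshold of 0.05. The common biological coefficient of variation was 12.7%. SE is the log2 change divided by the root of F. Transcripts with a mean of at least 1 FPKM were tested with limma 3.58.1 on log2(FPKM + 1). Ratios between members used counts + 0.5 and an exact permutation test. DESeq2 1.42.0, other scalings, filters, pseudocounts and left-out libraries were tried. In addition, edgeR, DESeq2 and limma were run on simulated counts with far fewer changed genes than were called here. That run does not show how they perform where most genes differ. Replicates differed by 10.5 to 50.5 chi-square per degree of freedom, more than repeated sequencing of the same library would give. Whether they came from separate cultures cannot be told from this.

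The members and lists were chosen with earlier results of these data known, so they are no independent support. The genes named are the members, the E proteins, the 4 genes with the smallest p on each list and the 3 most like each member; every other gene named from the lists was chosen after its values were seen. Some genes that this rule or the marker lists hold are not reported here.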

Additional observations from a re-analysis of the deposited data

How the results depend on the processing

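All 4 ID genes kept their direction under each of the 15 alternatives, with log2 changes of -1.02 to -0.80 for Id1, 0.71 to 0.86 for Id2, 0.40 to 0.65 for Id3 and 1.22 to 1.85 for Id4. They stayed past the threshold in all but the test against 2-fold, where Id1 (-0.88), Id2 (0.78) and Id3 (0.54) did not pass (edgeR adjusted p = 1 each). Without 1 library at a time the ranges were -1.02 to -0.80, 0.71 to 0.86, 0.40 to 0.65 and 1.67 to 1.85. The 1.22 for Id4 came only from limma on log2(FPKM + 1), with and without a filter, a scale that understates changes at low levels. Without Control replicate 1, Id1 changed by -1.02 and Id3 by 0.40. With the replicate number as a block, the changes were -0.87, 0.78, 0.56 and 1.78, and the call on Cdkn1c was lost (edgeR adjusted p = 0.0619). Same-numbered samples did not deviate together (correlations -0.0845, 0.0106 and -0.000529), and not every sample correlated best with its own number. No pairing by number was thus seen, though with 3 samples per group a weak one could be missed. The 5 transcript results kept their direction and their side of the threshold in the alternatives run. The 6 ratios between members kept their direction, while their exact p could not pass the threshold under any setting.

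Over all genes, 8914 passed in the fit reported and 1563 in the test against 2-fold. Counts on the lists moved by over 1.5 times mainly with the test against 2-fold, by its construction. There E proteins had 0 higher and 0 lower, tissue-specific bHLH factors 1 higher, partners outside the bHLH family 1 higher and 0 lower, kinase inhibitors 1 lower, BMP ligands 1 higher and 0 lower, receptors and SMADs 3 higher, antagonists 4 higher and 4 lower, other BMP targets 3 lower, and regulators 2 higher and 0 lower. With upper-quartile scaling, E proteins had 1 higher and receptors and SMADs 1 lower. In limma on FPKM, bHLH factors and BMP ligands had 1 higher each with either pseudocount, and without a filter E proteins and BMP ligands had 1 higher each; Hand2 and Bmp5 were left out by the filter on low values. With 1 library left out, higher E proteins numbered 1 to 2, higher BMP ligands 1 to 3 and lower receptors and SMADs 0 to 1. No scaling moved the median of all genes by more than 0.07 on the log2 scale. Among the members' values, those of the longer Id2 transcript and of Id4 rest on the fewest counts.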
